A study of Arabidopsis thaliana with 2 samples.

Results

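NAC proteins are a plant family of transcription factors that share a DNA-binding NAC domain, and SOG1 is the member that directs the response to DNA damage after the kinases ATM and ATR phosphorylate it. The 10 NAC genes described here are SOG1 itself, its close relatives ANAC044 and ANAC085, and ANAC082, ANAC103, NTL9, ANAC053, ANAC083, ANAC087 and NST1. They were looked up by locus in the authors' list of SOG1-Myc binding peaks, and were selected on their presence in that list, or its absence for SOG1 and ANAC082, with the peak values known. Of these 10 genes, 8 were among the 1513 loci that the authors named at a peak, and SOG1 and ANAC082 were not. ANAC044 and ANAC085 are known to act downstream of SOG1 in the arrest of the cell cycle at G2 after DNA damage, together with repressor MYB3R proteins.

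The series holds 1 anti-Myc ChIP-seq library of Col-0 plants that carry ProSOG1:SOG1-Myc (written ProSOG:SOG1-Myc in the genotype label) and were treated with 15 µM zeocin, a DNA-breaking drug, for 2 h, and 1 library of untagged Col-0 plants labelled mock, although the treatment text of both speaks of zeocin. Whole plants aged 2 weeks were used, and the same anti-Myc antibody was applied to both groups. The tagged protein was driven by the SOG1 promoter in plants described as wild type, and the state of their untagged SOG1 was not measured. The peak list analysed here comes from the tagged library, and peaks of the untagged library were not analysed here. The 2 libraries differ in genotype and, going by the label mock, in treatment, so the tag and the drug cannot be told apart, and each group has no replicate. Each peak's fold enrichment (a ratio to a base that no source used here names), Decibel Score (a score of unstated formula), FDR and count of reads are the authors' own values, and they describe and rank peaks within this list only.

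The list held 778 peaks with 78249 reads inside them. The median peak had a fold enrichment of 4.33 (range 2.49 to 23.0), a Decibel Score of 77.7 (50.01 to 1815), 75 reads (39 to 572) and a length of 837 bp (472 to 3767). A peak was assigned to 1 gene in 199 cases, to several in 544 and to none in 35. Positions are on TAIR10 as listed. The total depth of the library is unknown, so the exact Poisson intervals on read counts given below cover counting error within a peak only, and reads without molecular identifiers are not independent molecules.

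ANAC085 (AT5G14490) and ANAC044 (AT3G01600) had the highest fold enrichments of the NAC genes. The ANAC085 peak on chromosome 5, chr5:4672491-4673589, held 226 reads (exact 95% interval 197 to 257) over 1099 bp, with a fold enrichment of 17.15 and a Decibel Score of 837. It ranked 3 by fold enrichment in the whole list, between the peak of the recombination repair gene BRCA1 (17.8) and a peak that names PARP2 (AT4G02390; 17.08), a poly(ADP-ribose) polymerase gene. The PARP2 peak also names SAG21 and AT4G02400. The ANAC044 peak on chromosome 3, chr3:228614-229656, held 208 reads (exact 95% interval 181 to 238) over 1043 bp, with a fold enrichment of 11.8 and a Decibel Score of 435. It ranked 14 by fold enrichment, next to a peak that names AT3G27630, the locus of the kinase inhibitor SMR7 (11.9), and a peak of PUM8 (11.8). The peak with AT3G27630 also names AT3G27610, AOX1C and AT3G27640, so the list does not tell which of them is the target.

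The read counts of these relatives were close, whereas their listed fold enrichments, which have no error estimate, lay further apart. Whether the 2 measures truly differ in this was not tested. ANAC085 had 1.09 times the reads of ANAC044 (exact 95% interval 0.896 to 1.32), 1.45 times its fold enrichment and 1.93 times its Decibel Score. Their reads per kb of peak were 206 in ANAC085 and 199 in ANAC044, which ranked 6 and 9 in the list. The summit, taken as the listed distance from the peak start, lay 54.5 bp beyond the centre of the ANAC085 peak and 17.5 bp beyond that of the ANAC044 peak. In both peaks the summit thus lay close to the centre, which was usual in this list. Over all peaks it lay at a median of 51.2% of the peak length (quartiles 43.9% and 59.0%).

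Neither relative was the sole gene at its peak. The ANAC085 peak also named AT5G14495, a tRNA gene in the gene table. The ANAC044 peak also named AT3G01580 and CDC48C (AT3G01610), which encodes a protein of the CDC48 family of ATPases. In the gene order AT3G01590 lies between AT3G01580 and ANAC044 and was not named. Such a skipped coding gene was found at 123 of the 491 peaks that name several coding genes. The order is that of the gene table, and the annotation used by the authors is not known, so a skipped gene may be absent from it.

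SOG1 (AT1G25580) was not named at any peak. On one side a single coding locus, AT1G25570, separates it from the nearest named gene TEM1 (AT1G25560), a repressor of flowering. The TEM1 peak at chr1:8981634-8984050 was wide and of low fold enrichment, with 239 reads over 2416 bp at 3.45-fold, rank 648 by fold enrichment. Its Decibel Score of 183.7 was above the list's upper quartile of 119.6. On the other side 7 coding loci separate SOG1 from the nearest named gene, AT1G26140, whose peak was 4.99-fold. With the depth unknown, absence of binding at SOG1 and binding too weak to be listed cannot be told apart, and the lowest Decibel Score listed was 50.01. Peaks were sought here by their named genes only. Whether any of the 35 peaks assigned to no gene lies near SOG1 or ANAC082 was not checked.

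ANAC103 (AT5G64060) and ANAC082 (AT5G09330) have known roles in stress of protein production: ANAC103 in the unfolded protein response of the endoplasmic reticulum, ANAC082 in the response to disturbed ribosome production. ANAC103 had a peak at chr5:25635111-25636201 with 115 reads (exact 95% interval 94.9 to 138) over 1090 bp, a fold enrichment of 4.09 and a Decibel Score of 61.0, shared with ERS (AT5G64050). Its rank was 160 by reads but 443 by fold enrichment and 577 by Decibel Score. ANAC082 was not named, and 64 coding loci on one side and 49 on the other lay between it and the nearest named genes. The ANAC103 locus adjoins PI-4KBETA1 and that of ANAC082 lies 2 coding loci from PI-4KBETA2. Neither of these genes, which encode related lipid kinases, was named.

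NTL9 and ANAC053 belong to the NAC factors that are held at membranes until released. NTL9 (AT4G35580), also known as a calmodulin-binding NAC protein, had the highest read count of the NAC peaks, 337 reads (exact 95% interval 302 to 375) over 1916 bp at chr4:16890565-16892480. Its fold enrichment was 6.44 and its Decibel Score of 451 exceeded that of ANAC044. Its summit lay 417 bp beyond the peak centre, at 71.8% of the peak length. This peak named 5 loci, the others being HMGB5, RKD5, CST and AT4G35589, so the list does not tell which of them is the target.

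ANAC053 (AT3G10500), linked to reactive oxygen in drought and leaf senescence, was the only gene named at its peak at chr3:3270777-3272376. That peak held 203 reads (exact 95% interval 176 to 233) over 1599 bp. ANAC044 held 1.02 times as many (exact 95% interval 0.840 to 1.25). The fold enrichment of ANAC053 was 5.03 and its Decibel Score 77.6, against 11.8 and 435 at ANAC044. With nearly equal reads, the ANAC044 peak was shorter, at 1043 bp against 1599 bp, and it scored higher. The 2 coding loci before ANAC053 are the NAC genes NAC052 and NAC050, and neither was named.

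ANAC083 and NST1 act in the development of water-conducting vessels and secondary cell walls. ANAC083 (AT5G13180), also called VNI2, interacts with the vessel regulator VND7 and was the only gene named at chr5:4196800-4197808. Its peak had 82 reads (exact 95% interval 65.2 to 102) over 1008 bp, a fold enrichment of 4.08 and a Decibel Score of 82.2. NST1 (AT2G46770), a promoter of secondary wall thickening, had the fewest reads of the 8, with 49 (exact 95% interval 36.3 to 64.8) over 632 bp at chr2:19227294-19227925, a fold enrichment of 4.25 and a Decibel Score of 60.01, just under the list's lower quartile of 60.5. AT2G46780 and AT2G46787 were named at the same peak. The NST1 peak ranked 736 of 778 by reads, 591 by Decibel Score and 403 by fold enrichment, so it was low by reads but near the middle of the list by fold enrichment.

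ANAC087 (AT5G18270), which acts in programmed cell death of the root cap, shared its peak at chr5:6042395-6043424 with AT5G18260. The peak held 108 reads (exact 95% interval 88.6 to 130) over 1030 bp, with a fold enrichment of 3.74, the lowest of the 8, and a Decibel Score of 103. By Decibel Score it ranked 235, and by fold enrichment 562. The nearby NAC088, 3 coding loci away, was not named.

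**Figure D1:**
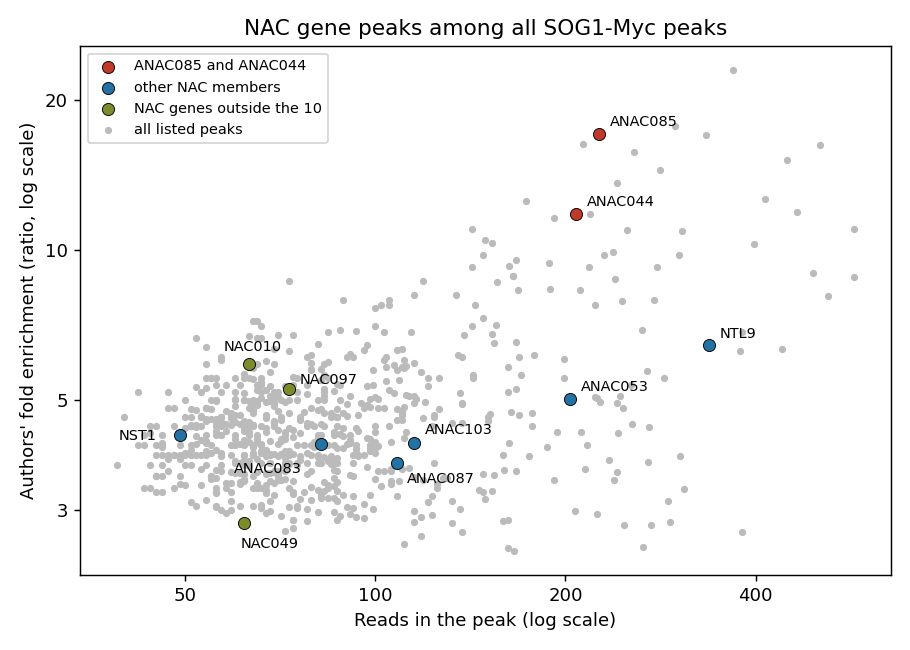
Each point is 1 of the 778 listed peaks, with reads in the peak on the x axis and the authors' fold enrichment on the y axis, both on log scales. ANAC085 (226 reads, 17.1-fold) and ANAC044 (208 reads, 11.8-fold) stand above ANAC053 (203 reads, 5.03-fold), whose read count is similar.

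The NAC peaks were also set beside peaks of like length, which restates the fold ranking within a length class. Among the 64 peaks of 1000 to 1100 bp, which include 5 NAC peaks, the median was 98 reads and 4.14-fold. ANAC085 ranked 1 and ANAC044 ranked 3 by fold enrichment in this length class. ANAC103, ANAC083 and ANAC087 had similar lengths, with 82 to 115 reads and 3.74-fold to 4.09-fold. ANAC085 had 1.97 times the reads of ANAC103 (exact 95% interval 1.56 to 2.48) and ANAC044 had 1.81 times (1.43 to 2.29). These genes were chosen with their read counts known, so the intervals give counting error only and are no test of a difference.

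Each peak was also placed among those with read counts within 10% of its own, which describes the fold ranking at a given read count and does not add to it. Of 27 such peaks, 0 exceeded the fold enrichment of ANAC085, and 2 of 22 exceeded that of ANAC044. For NTL9 it was 3 of 5, for ANAC053 12 of 19, for ANAC103 46 of 68 and for ANAC087 61 of 81. For ANAC083 it was 68 of 135 and for NST1 25 of 69. Fold enrichment and reads were only loosely related in the list (Spearman's rho 0.23 over 778 peaks), while reads followed peak length closely (rho 0.95), the peaks all coming from 1 library.

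**Figure D2:**
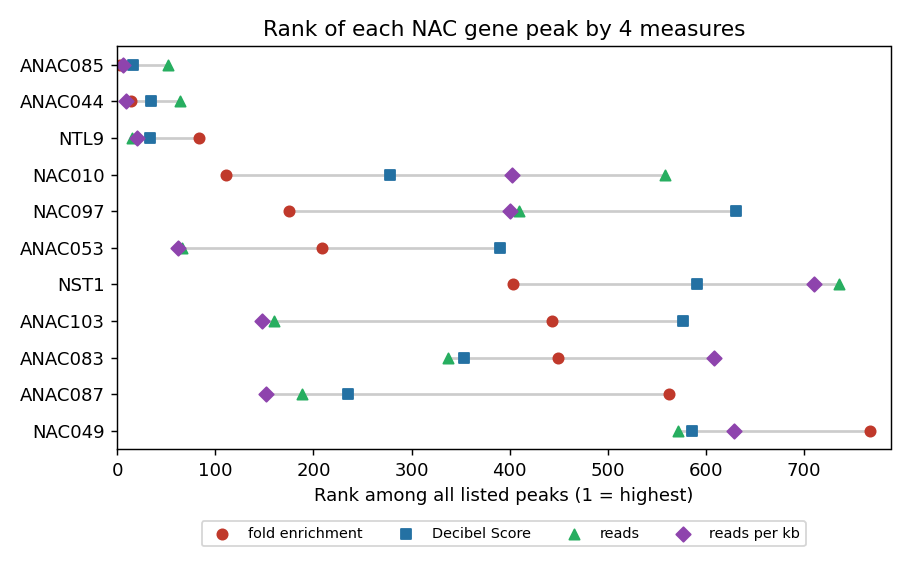
Rank of each NAC gene peak among the 778 listed peaks (x axis, 1 is the highest) by fold enrichment, Decibel Score, reads and reads per kb of peak, with genes ordered by fold enrichment down the page. ANAC085 ranked between 3 and 52, ANAC044 between 9 and 64 and NTL9 between 15 and 83, whereas ANAC103 ranged from 148 to 577.

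The order of the NAC genes depended on the measure. ANAC044 had 1.84 times the fold enrichment of NTL9, the highest of the other NAC peaks, and 1.13 times its reads per kb. By Decibel Score, NTL9 stood above ANAC044, with 0.964 for ANAC044 over NTL9, and by reads the same ratio was 0.617. The 8 peaks of the 10 genes had a median fold enrichment of 4.64, against 4.33 for all peaks, and 4 of the 8 lay above that list median. For reads 7 of the 8 lay above the list median, and for length likewise 7. The authors' FDR was 0.125 at ANAC085, 0.176 at ANAC044 and 0.182 at NTL9, and these were the lowest and the 2 highest of the 8. Over the list it ran from 0.116 to 1 with a median of 0.147, so no listed peak had a lower FDR than 0.116. Whether these values are fractions or percentages is not stated, so no error rate is read from them.

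Many peaks carried identical folds. The 778 peaks carried 469 distinct values, and the exact fold enrichment of ANAC087 was shared by 17 peaks (itself included), that of NST1 by 12, that of NAC010 by 5 and that of ANAC083 by 4. Those of ANAC085, ANAC044, NTL9, NAC097, ANAC053, ANAC103 and NAC049 were each held by 1 peak.

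**Figure D3:**
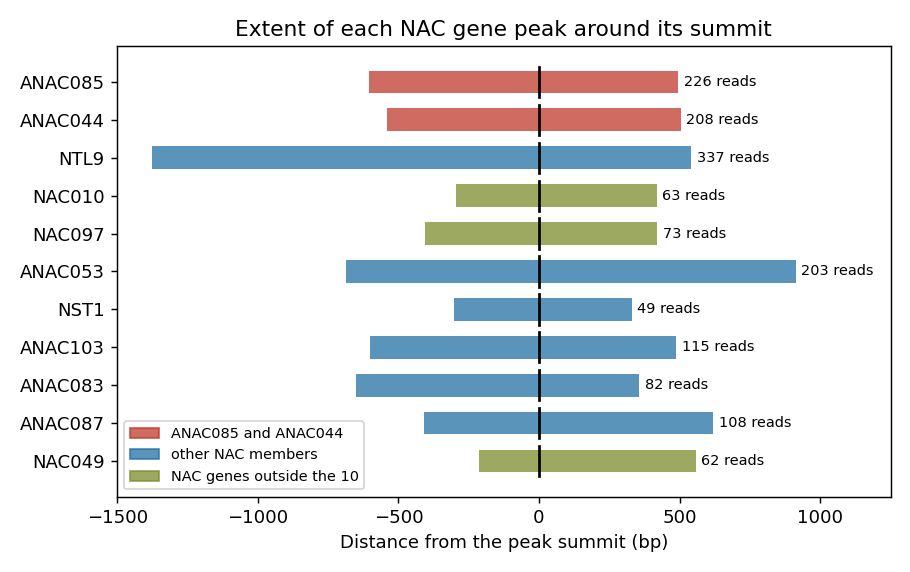
Extent of each NAC gene peak in bp from its summit (black line), in the direction of the chromosome, with the reads in the peak at the right. The ANAC085 and ANAC044 peaks span 1099 and 1043 bp around a near-central summit, and the NTL9 peak reaches farther before its summit than after it. NAC097, NST1 and ANAC103 also have near-central summits.

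Across the whole family, 11 of 101 NAC loci in the gene table were named at a peak (10.9%, exact 95% interval 5.56 to 18.7), each at a peak of its own. Of all protein-coding loci 4.99% were named, and of all nuclear loci 3.91%. The 8 named members are part of this count and were selected as named, so nothing is read from their share. Of the 10 genes, 4 were named among the 389 strongest peaks by fold enrichment and 5 among the 389 strongest by Decibel Score, against 2.51% of protein-coding loci by either measure. At peaks with 1 gene it was 2 of the 10, ANAC053 and ANAC083, against 0.66% of protein-coding loci. Outside the 10 genes, 3 of 91 NAC loci were named (3.30%, exact 95% interval 0.685 to 9.33). These were NAC010 (AT1G28470), a factor associated with secondary walls, NAC097 (AT5G50820) and NAC049 (AT3G04430). Removing the 10 genes, 8 of them named, from the family lowers this share by construction.

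NAC010 was the only gene named at chr1:10008774-10009487, with 63 reads and 5.92-fold. NAC097 shared its peak at chr5:20674847-20675673 (73 reads, 5.26-fold) with the tRNA gene AT5G50805. NAC049 had 62 reads and 2.84-fold at chr3:1180723-1181492, rank 767 in the list, and all 197 peaks within 10% of its reads had a higher fold enrichment. The median over the 9 NAC peaks other than those of ANAC085 and ANAC044 was 4.25-fold, near the 4.33 of the list.

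The NAC genes were also counted in 6 lists by known role. The lists were built around the 10 genes, so that 5 of the 6 hold a named locus follows from their choice, and against the 4.99% of all protein-coding loci nothing is read from these counts. Of SOG1 and its relatives, ANAC044 and ANAC085 were named and SOG1 was not. The list of membrane-tethered factors had 2 of 13 loci named, NTL9 and ANAC053, and the 11 without a peak included NAC062, NAC089 and NTL8. The list of secondary wall and vessel factors also had 2 of 13 named, NST1 and ANAC083, while VND7, VND1 and the other NST genes (NAC066 and NAC012) were not. Of 13 listed senescence and stress factors ANAC087 was named, and ATAF1, NAP, RD26 and NAC019 were not. Of 4 factors of endoplasmic reticulum and ribosome stress, ANAC103 was named. Of 7 listed factors of meristem and root cap identity, among them CUC1, CUC2, CUC3 and SMB, 0 were named. The lists are not complete and each locus but NAC062 stands in 1 list, so a named gene with several roles is counted once. Thus ANAC087, with its root cap role, counts under senescence and ANAC053, with its senescence role, under membrane tethering, while NAC010 is in none of the lists.

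Of the partners of SOG1 and of its relatives in the damage response, ATM, ATR and SUV2 (also known as ATRIP), which act in the kinase step, were not named. Neither were the 4 MYB3R genes that were looked up, of which the repressor type are partners of ANAC044 and ANAC085. Of 6 genes of the G2 to M transition, CYCB1;1 (AT4G37490) was named, at a peak of 83 reads and 4.70-fold at chr4:17623793-17624595. That peak also named AT4G37483 and AT4G37500. The mitotic genes CYCA1;1, CDKB2;1 and CDKB2;2 were not named. With 4.99% of all protein-coding loci named, these lists are too small for anything to be read from their counts.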

How the data were processed

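Anti-Myc ChIP was followed by sequencing, with CASAVA 1.8.2 and build TAIR10 per the submitters' processing notes. The sources used here do not say how reads were aligned, peaks called or genes assigned. Per the file headers, the authors deposited per peak a read count, a fold enrichment (ratio), a Decibel Score and an FDR. Whether the FDR is a fraction or a percentage is not stated there. None of these values was rescaled. The 1645 lines, 1 per peak and gene, were reduced to 778 peaks. Peak edges are uncertain by 1 bp, since the listed length includes both ends at 517 peaks but not at 261.

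Of 1513 named loci, 1483 matched the gene table of assembly TAIR10.1, used for names, classes and gene order only. NAC family loci carry there a NAC number, a NAC domain protein name, or the name calmodulin-binding NAC protein or NAC transcription factor-like with a number. The NAC domain protein name alone did not include NTL9. Named genes are the 10 members, other NAC loci at peaks, genes sharing a member's peak, and lists of NAC groups and SOG1 partners. Members and lists were chosen with earlier results of these data known; flanking genes, adjoining peaks and comparisons at like length or reads were added after values were seen. With 1 library a group, no test was made. Intervals (95%) are exact: Clopper-Pearson for shares, Poisson for reads, conditional binomial for read ratios. Collapsing and ranking were tested on simulated data (Python 3.11.15, pandas 2.3.3, scipy 1.17.1). The planned promoter and protein analyses were not run, as sequences were not used here.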

Additional observations from a re-analysis of the deposited data

How the results depend on the processing

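No replicate exists, so no result could be checked without a library, and no paired analysis was possible because each group has 1 sample. Of the 10 genes, 4 were named among the 389 strongest peaks by fold enrichment and 5 by Decibel Score (2.51% of protein-coding loci by either), and 2 at peaks with 1 gene (0.66%), against 8 at all peaks. Of the NAC family, 6 and 3 loci were named under the fold enrichment and 1-gene restrictions, against 11; a stricter definition of the family gave 10. The peak restrictions keep only part of the list, so these counts could only fall or stay the same. The size of the fall was not tested. The background share was 3.91% of all nuclear loci. The median rank of the 8 member peaks was 306 by fold enrichment, 294 by Decibel Score, 113 by reads and 105 by reads per kb. Of 24 single ranks, 19 moved by over 1.5 times from that by fold enrichment, and the cause was not tested. A ratio of ranks counts small shifts near the top of the list and passes over larger ones lower down. ANAC044, at 14 by fold enrichment and 9 by reads per kb, counts as moved. ANAC083, at 449 and 608, does not. Over the alternatives chosen after seeing the data, the count of other NAC peaks above ANAC044 was 1 by Decibel Score and 1 by reads, against 0 by fold enrichment and 0 by reads per kb, and the ratio of ANAC044 to the highest of them was 0.964, 0.617, 1.84 and 1.13. Searches for the known SOG1 binding motif in promoters and protein alignments to SOG1 were not run, nor were their alternatives.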

Other observations

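The relatives ANAC085 and ANAC044 each lie near a gene of the RGLG family of ubiquitin ligases, RGLG2 being 7 coding loci from ANAC085 and RGLG1 5 from ANAC044. RGLG2 was named, with AT5G14410 and AT5G14430, at the peak nearest to that of ANAC085, 20927 bp away. That shared peak had a fold enrichment of 3.55, below the list's lower quartile of 3.70. RGLG1 was not named. The peak nearest to that of ANAC044 was 171617 bp away, against a median of 36696.5 bp from a peak to its nearest neighbour over the list. The NAC010 peak had the closest neighbour of the 11, 4159 bp away, which named GRX480, SYP61 and AT1G28500 at 5.17-fold.

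A tRNA gene was named at 2 of the 11 NAC peaks, those of ANAC085 and NAC097, and at 32 of all 778 peaks (4.11%). The count of 2 is too small to set against that share.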
